A study of Mus musculus with 8 samples.

Results

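The genes described here are 7 members of the BCL2 family, Bcl2, Bcl2l1, Mcl1, Bcl2l11, Bid, Bad and Bak1, together with the caspase gene Casp8. They were chosen by symbol from the table of gene counts, which holds 25413 genes, and all 8 were found there. All 8 also passed the filter on low counts, which kept 13716 genes, with counts of 200 to 12930 in a library. Casp8 encodes an initiator caspase, and none of the 8 encodes an executioner caspase; the executioner gene Casp6 is given further on with other genes of the pathway.

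BCL2 family proteins meet at the outer membrane of mitochondria. Anti-apoptotic members (Bcl-2, Bcl-xL, Mcl-1) hold back pore-forming members (Bak, Bax), and BH3-only members (Bim, Bid, Bad) relieve that restraint or activate the pore formers directly, after which cytochrome c leaves the mitochondria and caspases are activated. Caspase-8 acts at death receptors and cleaves Bid, which carries the signal to mitochondria. In the mammary gland this family is known for its part in involution after weaning, when epithelial cells die in large numbers. Many of its members are also controlled after transcription, by protein stability, phosphorylation or cleavage, which RNA sequencing does not measure.

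The RNA came from 3D spheroids, rounded cell aggregates, of 2 mouse mammary cell lines, with 2 libraries in each of 4 groups. The groups were EpH4-AS with PM2.5 (fine airborne particulate matter), EpH4-AS untreated, EpH4 with PM2.5 and EpH4 untreated. In the labels EpH4 has the genotype WT and EpH4-AS, called malignantly transformed in the design text, the genotype AS-transformed, and all 8 libraries belong to 1 batch of polyadenylated RNA. Each line is 1 cell line, so a difference between the lines is a difference between these cultures, and no source used here gives the dose or duration of PM2.5 or spells out "AS". Nothing in the labels states that the 2 libraries of a group were grown as separate cultures, so each p-value reflects library-to-library spread that could be purely technical. The design asks for the effect of transformation, of PM2.5 and of their interaction.

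Total counts per library ran from 15393256 to 18334052 in EpH4-AS and from 24608176 to 27765982 in EpH4, without overlap. Both lines are labelled as epithelial cells of the mammary gland, yet of 12 epithelial marker genes all 12 were under 1 CPM (counts scaled to library size) in EpH4-AS and 11 in EpH4, where Krt14 alone was above it and Epcam was at 0. They summed to 0.934 to 1.25 CPM in EpH4-AS with PM2.5, 0.822 to 1.02 CPM in EpH4-AS untreated, 9.37 to 9.95 CPM in EpH4 with PM2.5 and 3.98 to 4.33 CPM in EpH4 untreated. The 11 mesenchymal markers summed to 6607 to 7244 CPM in EpH4-AS with PM2.5 and 7301 to 7443 CPM in EpH4-AS untreated. In EpH4 they summed to 14008 to 14444 CPM with PM2.5 and 15750 to 15936 CPM untreated. Vim and Fn1 made up most of these sums. Under 1 CPM were 2 of the 11 in both EpH4-AS groups and in EpH4 untreated, and 1 in EpH4 with PM2.5. Thy1 was at most 0.229 CPM in any library, and Col1a1 at most 0.163 CPM in EpH4-AS. The low epithelial markers thus go against the epithelial label, while the mesenchymal markers were not uniformly high. Mitochondrially encoded genes took 0.219% to 0.302% of counts in EpH4-AS and 2.21% to 5.03% in EpH4, and were higher with PM2.5 than without it in each line. Of 5 adipocyte markers Cd36 and Fabp4 were above 1 CPM in EpH4-AS and Lep was at 0; the list summed to 17.0 to 19.5 CPM in EpH4-AS with PM2.5 and 64.3 to 66.6 CPM in EpH4-AS untreated, and to at most 1.36 CPM in EpH4. Of 5 macrophage or leukocyte markers, Cd68 made up nearly all of a sum of 41.0 to 42.2 CPM in EpH4-AS with PM2.5, 38.8 to 40.1 CPM in EpH4-AS untreated, 194 to 225 CPM in EpH4 with PM2.5 and 175 to 177 CPM in EpH4 untreated, while the pan-leukocyte gene Ptprc was at most 0.0727 CPM. Marker sums thus differed with the line and, for most lists, with PM2.5 in at least 1 line, and their part in the results below was not tested. In RNA of whole cultures, fewer cells that express a gene and less RNA per cell cannot be told apart.

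Promoter sequences are shown for 3 of the 4 genes that rose with PM2.5 in EpH4, those for which the RefSeq promoter table (build GRCm38.p6) holds a single start; Bcl2l1, the fourth, has 3 starts there. Each run is the 250 bases before the start, 5′ to 3′ on the gene's strand, with capitals marking matches to the searched motifs. The Bid window is chr6:120916825-120917074, minus strand, the Bak1 window is chr17:27028628-27028877, minus strand, and the Casp8 window is chr1:58802252-58802501, plus strand.
Bid: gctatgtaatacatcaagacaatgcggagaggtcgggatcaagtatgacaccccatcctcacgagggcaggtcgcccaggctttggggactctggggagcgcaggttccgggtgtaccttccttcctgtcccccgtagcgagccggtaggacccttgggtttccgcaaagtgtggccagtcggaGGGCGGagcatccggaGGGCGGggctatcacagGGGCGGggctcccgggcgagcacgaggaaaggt
Bak1: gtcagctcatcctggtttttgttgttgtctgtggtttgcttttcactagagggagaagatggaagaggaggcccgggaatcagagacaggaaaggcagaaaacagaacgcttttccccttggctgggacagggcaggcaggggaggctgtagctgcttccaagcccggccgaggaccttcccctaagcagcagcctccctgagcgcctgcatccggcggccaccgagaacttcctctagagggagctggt
Casp8: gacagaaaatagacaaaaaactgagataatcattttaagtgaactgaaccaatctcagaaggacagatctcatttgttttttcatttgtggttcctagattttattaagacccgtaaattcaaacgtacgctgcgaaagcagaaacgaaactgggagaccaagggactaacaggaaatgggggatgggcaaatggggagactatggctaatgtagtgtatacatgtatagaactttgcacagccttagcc
The motifs searched on both strands were GCGTG (the core bound by the aryl hydrocarbon receptor), TGACNNNGC (the antioxidant response element core bound by NRF2) and GGGCGG (the GC box). Bid held GGGCGG at 3 places, starting at -66, -50 and -33 from the start site, while the Bak1 and Casp8 windows held none of the 3 motifs. Of 32817 such windows in the table, 28.1% held GCGTG, 10.2% TGACNNNGC and 32.7% GGGCGG. The other windows of the 8 genes held GCGTG in Bcl2l11, Bad and Bcl2l1, TGACNNNGC in Bcl2l1, and GGGCGG in Bcl2, Bcl2l11, Bad and Mcl1. Of these genes, Bcl2l1 passed with PM2.5 in EpH4, while Bcl2, Bcl2l11, Bad and Mcl1 did not pass in either line. A match is a description of letters and not of binding, and the absence of a match says only that these letters are not in this window.

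Before any comparison, the 8 genes differed widely in level. Levels between genes are compared here in the authors' RPKM, reads scaled to exon length and library size, as mean ± SD over 2 libraries. Mcl1 was the most abundant in all 4 groups, at 108 ± 1.67 RPKM in EpH4-AS with PM2.5, 100.5 ± 1.14 RPKM in EpH4-AS untreated, 109 ± 3.46 RPKM in EpH4 with PM2.5 and 117 ± 2.60 RPKM in EpH4 untreated. That was 6.63, 7.02, 4.83 and 7.07 times the next gene in these groups, which was Bak1 each time. Bcl2, which gave the family its name, was the lowest of the 8 in every group, at 1.41 ± 0.0282 RPKM in EpH4-AS with PM2.5, 1.74 ± 0.0172 RPKM in EpH4-AS untreated, 1.02 ± 0.0945 RPKM in EpH4 with PM2.5 and 1.14 ± 0.116 RPKM in EpH4 untreated. Between these ends, Bcl2l1 was in the third place in all groups, and Bak1 and Bcl2l1 could not be separated in untreated EpH4, where their libraries overlapped. The middle of the order differed between the lines: Bid stood above Bcl2l11 and Bad in both EpH4 groups, at 15.1 ± 1.03 RPKM with PM2.5 and 11.7 ± 0.757 RPKM untreated, while in EpH4-AS with PM2.5 Bad, at 6.52 ± 0.0104 RPKM, stood above Bid, at 6.30 ± 0.156 RPKM. Bcl2l11 and Bid overlapped in untreated EpH4-AS, and Bcl2l11 and Bad in EpH4 with PM2.5.

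**Figure D1:**
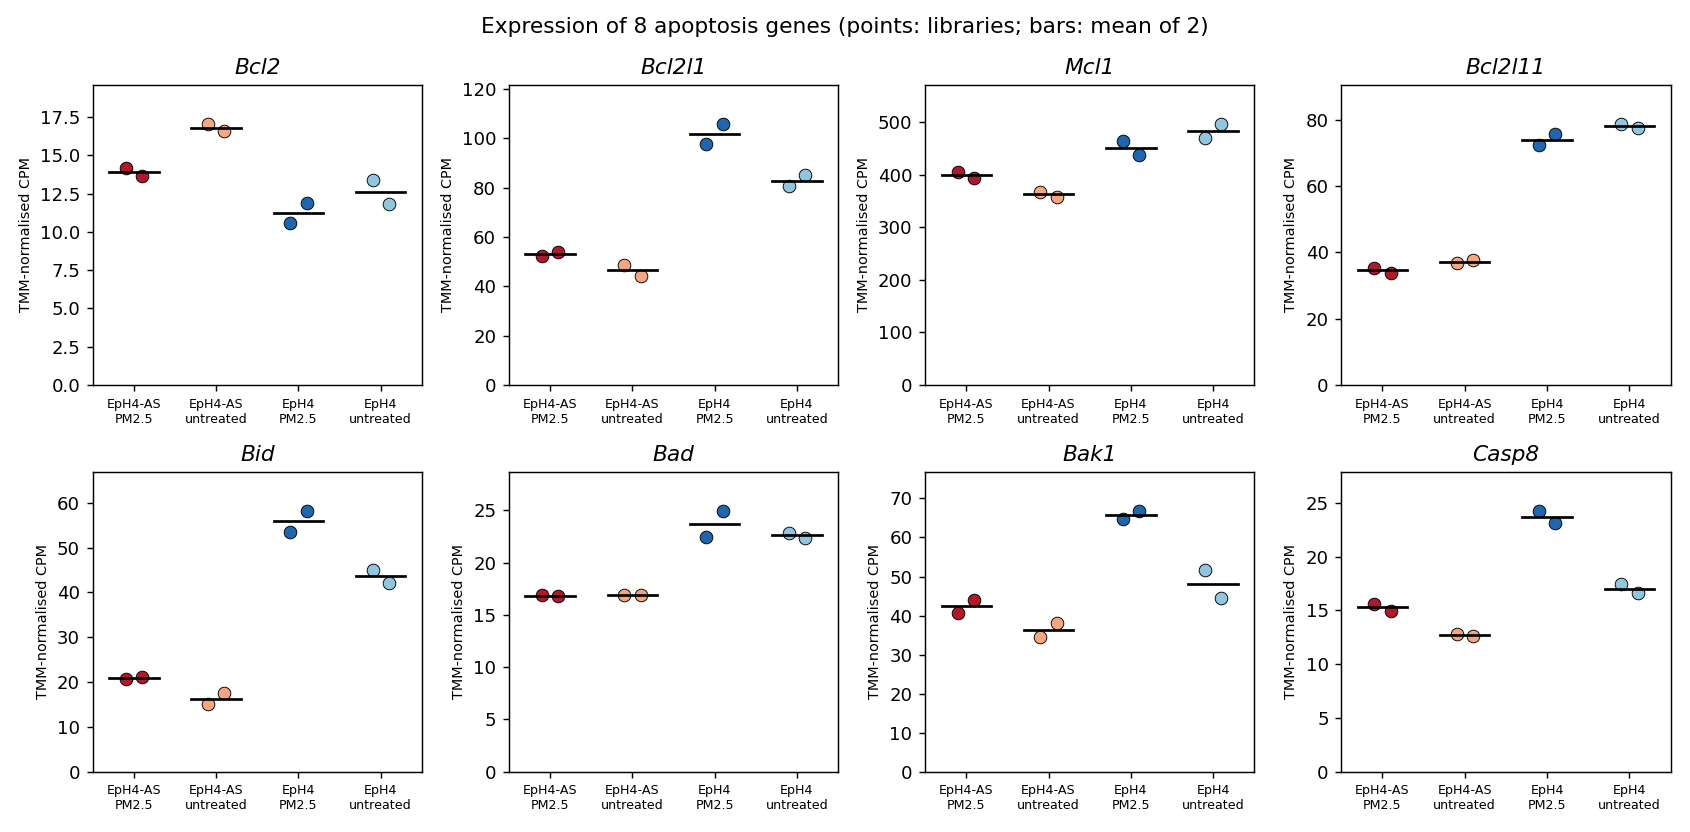
Level of each of the 8 genes in TMM-normalised CPM (vertical axes, starting at 0) in the 8 libraries; points are libraries and bars the mean of 2. Bcl2 is the only panel in which both EpH4-AS groups lie above their EpH4 counterparts. For Bcl2l1, Bid, Bak1 and Casp8 both EpH4 libraries with PM2.5 lie above all other libraries. Bad also has its highest mean in that group, but its libraries overlap those of untreated EpH4.

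With PM2.5, 4 of the 8 genes rose in EpH4 at an adjusted p below 0.05: Casp8, Bak1, Bid and Bcl2l1. They are an initiator caspase, a pore former, a BH3-only gene and an anti-apoptotic gene, so the genes that rose were not of 1 role. Over all tested genes 27.2% passed in EpH4, 14.3% as higher and 12.9% as lower. The increases were 39.2% for Casp8, 36.6% for Bak1, 28.1% for Bid and 22.7% for Bcl2l1. In EpH4-AS, Bid alone passed, with an increase of 28.2%, where 11.1% of all tested genes passed, 6.39% as higher and 4.75% as lower. All EpH4-AS libraries had fewer total counts than all EpH4 libraries, and the part of depth in these calls was not tested. Exposed libraries lay wholly above untreated ones for 5 of the 8 genes in EpH4-AS and wholly below for 2, where 29.6% and 28.0% of all tested genes did so. In EpH4 the counts were 4 above and 2 below, where 31.0% and 30.0% of all tested genes did so. The median log2 fold change of the 8 genes was 0.17 in EpH4-AS and 0.18 in EpH4, against a median over all tested genes of 0.00 in each line.

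Between the lines all 8 genes differed, in the exposed and in the untreated spheroids. Bcl2 was higher in EpH4-AS, and the other 7 were lower. This has to be read against a background in which 89.0% of all tested genes passed with PM2.5 (43.5% higher, 45.5% lower) and 89.2% untreated (43.6% higher, 45.7% lower). The median log2 difference of the 8 genes, EpH4-AS minus EpH4, was -0.63 with PM2.5 and -0.42 untreated, against -0.04 and -0.05 over all tested genes. Libraries of the lines did not overlap for any of the 8 genes, 1 higher and 7 lower, where 46.2% and 48.2% of all tested genes lay so with PM2.5 and 46.0% and 48.5% untreated. On log2(RPKM + 1) values the median of all genes shifted by 0.12 with PM2.5 and by 0.15 untreated, the medians of the 8 genes were -0.42 and -0.21, and none of the 8 changed direction. No exact test of 2 against 2 libraries can go below a two-sided p of 0.333, so the tests are edgeR's quasi-likelihood test with Benjamini-Hochberg adjustment over all tested genes, from 1 fit of the 4 groups.

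**Figure D2:**
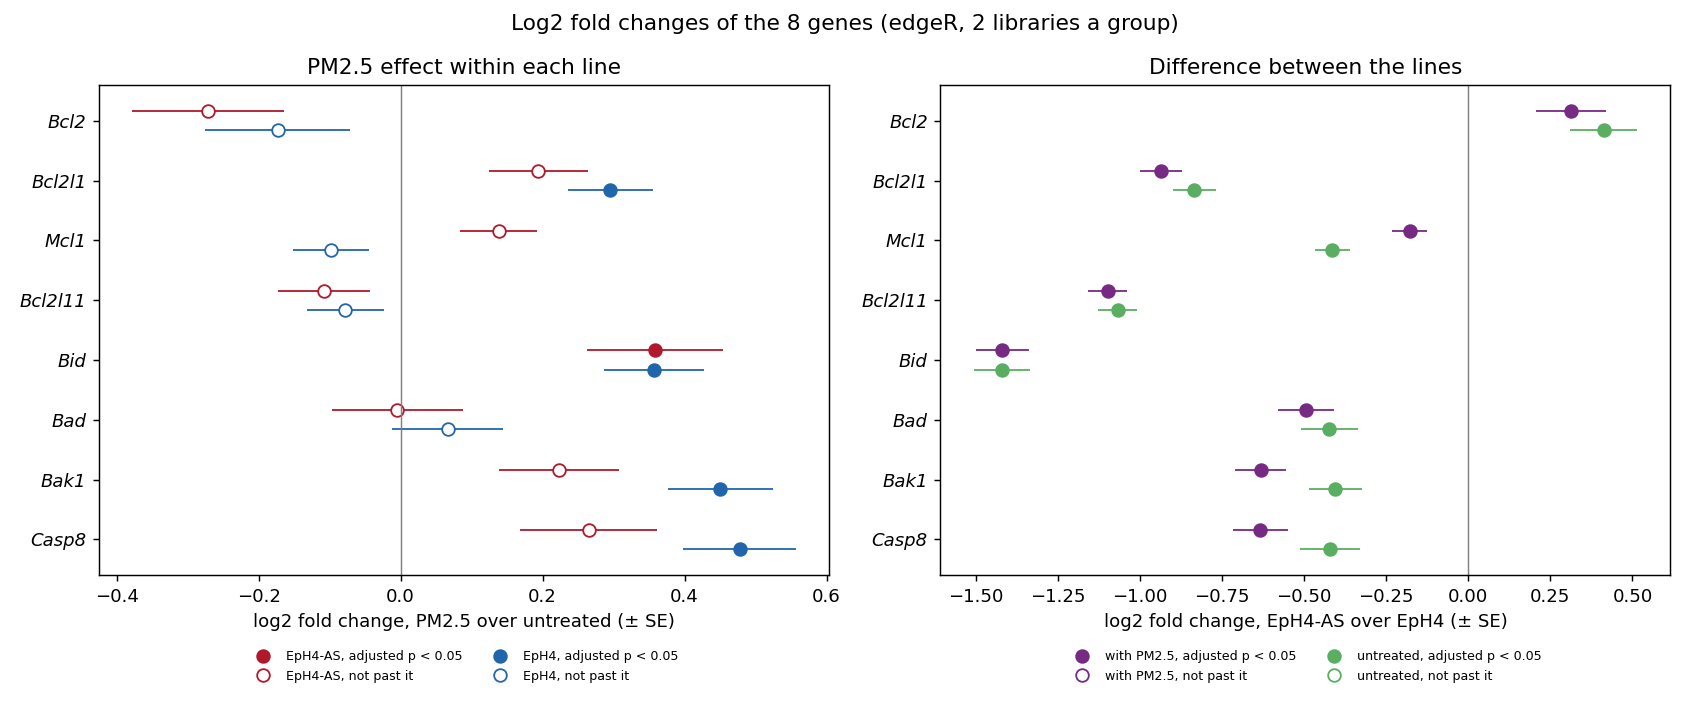
Log2 fold changes of the 8 genes ± SE (horizontal axes) for PM2.5 over untreated within each line (left) and for EpH4-AS over EpH4 (right); filled points pass an adjusted p of 0.05. On the left 4 EpH4 points and the Bid point of EpH4-AS are filled, and on the right all 16 points are filled, with Bcl2 to the right of 0 and the other 7 genes to the left.

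Among the anti-apoptotic genes, Mcl1 (ENSMUSG00000038612, chromosome 3, 95566099 to 95570487, plus strand, GRCm39) encodes a short-lived guardian of mitochondria. It measured 405 and 393 CPM in EpH4-AS with PM2.5, against 368 and 357 CPM in EpH4-AS untreated. In EpH4 it measured 465 and 438 CPM with PM2.5, against 470.0 and 497 CPM untreated. The exposed libraries thus lay above the untreated ones in EpH4-AS and below them in EpH4, without overlap in either line, although neither shift passed the threshold: the log2 fold change was 0.14 ± 0.05 in EpH4-AS (adjusted p = 0.123) and -0.10 ± 0.05 in EpH4 (adjusted p = 0.200, edgeR). Mcl1 was lower in EpH4-AS than in EpH4, at -0.18 ± 0.05 log2 units with PM2.5 (adjusted p = 0.00610) and -0.41 ± 0.05 untreated (adjusted p = 3.74e-06, edgeR). The exposed difference ended on the RPKM scale, at -0.01 (adjusted p = 0.743, limma), and without EpH4-AS PM2.5 replicate 2 (-0.15, adjusted p = 0.0727, edgeR).

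Bcl2l1 (ENSMUSG00000007659, chromosome 2, 152622588 to 152673648, minus strand) encodes Bcl-xL and, by splicing, a shorter pro-apoptotic form that gene counts do not separate. It measured 52.4 and 53.9 CPM in EpH4-AS with PM2.5, against 48.6 and 44.3 CPM in EpH4-AS untreated. The EpH4 libraries held 97.6 and 106 CPM with PM2.5, against 80.5 and 85.2 CPM untreated. All exposed libraries lay above the untreated libraries of their line, and all EpH4-AS libraries lay below all EpH4 libraries. The log2 rise in EpH4 was 0.30 ± 0.06 (adjusted p = 0.00254, edgeR), and the value in EpH4-AS was 0.19 ± 0.07, which did not pass (adjusted p = 0.0931). The line difference was -0.94 ± 0.06 with PM2.5 and -0.83 ± 0.07 untreated, or -47.7% and -43.9% (adjusted p = 2.39e-09 and 1.30e-08, edgeR).

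Bcl2 (ENSMUSG00000057329, chromosome 1, 106465908 to 106642004, minus strand) encodes the founding anti-apoptotic protein. It measured 14.2 and 13.7 CPM in EpH4-AS with PM2.5, against 17.0 and 16.6 CPM in EpH4-AS untreated. Its EpH4 levels were 10.6 and 11.9 CPM with PM2.5, against 13.4 and 11.9 CPM untreated. The EpH4-AS groups did not overlap, with both exposed libraries lower, while the EpH4 groups did. Neither log2 fold change passed, at -0.27 ± 0.11 in EpH4-AS (adjusted p = 0.124) and -0.17 ± 0.10 in EpH4 (adjusted p = 0.239, edgeR). Bcl2 was the 1 gene of the 8 that was higher in EpH4-AS, by 0.31 ± 0.11 log2 units with PM2.5 (adjusted p = 0.0124) and by 0.41 ± 0.10 untreated (adjusted p = 0.00166, edgeR). The exposed difference was no longer called by DESeq2 (adjusted p = 0.0762), without EpH4 PM2.5 replicate 1 (adjusted p = 0.105, edgeR) or without EpH4-AS PM2.5 replicate 1 (adjusted p = 0.0513, edgeR).

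Among the BH3-only genes, Bid (ENSMUSG00000004446, chromosome 6, 120868891 to 120893814, minus strand), the substrate that links caspase-8 to mitochondria, was the 1 gene of the 8 to pass in both lines. It measured 20.6 and 21.2 CPM in EpH4-AS with PM2.5, against 15.1 and 17.6 CPM in EpH4-AS untreated. EpH4 spheroids held 53.6 and 58.2 CPM with PM2.5, against 45.1 and 42.1 CPM untreated. Exposed libraries lay above untreated ones in each line, and the log2 rise was 0.36 ± 0.10 in EpH4-AS (adjusted p = 0.0276) and 0.36 ± 0.07 in EpH4 (adjusted p = 0.00212, edgeR). The call in EpH4-AS was lost with DESeq2 (adjusted p = 0.0638), on RPKM values (adjusted p = 0.0677, limma), and in edgeR without EpH4-AS untreated replicate 1 (0.27, adjusted p = 0.255), without EpH4-AS PM2.5 replicate 1 (0.39, adjusted p = 0.0765) and without EpH4-AS PM2.5 replicate 2 (0.35, adjusted p = 0.142). Bid also had the largest line difference of the 8, at -1.42 ± 0.08 log2 units with PM2.5 and -1.42 ± 0.09 untreated, or -62.6% each time (adjusted p = 2.42e-10 and 5.10e-10, edgeR). The Bid locus shares 913 bases with Bcl2l13 on the opposite strand, whose counts were 924 to 1330 in a library, and the counting strand is not given in the sources used here.

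Bcl2l11 (ENSMUSG00000027381, chromosome 2, 127967958 to 128004467, plus strand) encodes Bim, a potent activator whose transcription is known to rise on loss of growth factors. It measured 35.2 and 33.9 CPM in EpH4-AS with PM2.5, against 36.8 and 37.7 CPM in EpH4-AS untreated. In the EpH4 line it stood at 72.3 and 75.8 CPM with PM2.5, against 78.7 and 77.5 CPM untreated. Exposed libraries were the lower ones in both lines, but the log2 fold changes of -0.11 ± 0.06 in EpH4-AS and -0.08 ± 0.05 in EpH4 did not pass (adjusted p = 0.332 and 0.318, edgeR). The line difference was -1.10 ± 0.06 with PM2.5 and -1.07 ± 0.06 untreated, or -53.3% and -52.3% (adjusted p = 1.42e-10 and 1.86e-10, edgeR).

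Bad (ENSMUSG00000024959, chromosome 19, 6919229 to 6929267, plus strand), which survival kinases keep inactive by phosphorylation, was the flattest of the BH3-only genes. It measured 16.9 and 16.8 CPM in EpH4-AS with PM2.5, against 16.9 and 16.9 CPM in EpH4-AS untreated. The EpH4 levels were 22.4 and 24.9 CPM with PM2.5, against 22.8 and 22.4 CPM untreated. The groups overlapped in each line, with log2 fold changes of -0.00 ± 0.09 in EpH4-AS and 0.07 ± 0.08 in EpH4 (adjusted p = 0.992 and 0.579, edgeR). Bad was lower in EpH4-AS, at -0.49 ± 0.08 with PM2.5 and -0.42 ± 0.09 untreated (adjusted p = 6.39e-05 and 0.000306, edgeR). It shares 620 bases with Gpr137 on the opposite strand, with counts of 317 to 1079.

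The pore former Bak1 (ENSMUSG00000057789, chromosome 17, 27238784 to 27247983, minus strand) measured 40.7 and 44.1 CPM in EpH4-AS with PM2.5, against 34.6 and 38.2 CPM in EpH4-AS untreated. EpH4 libraries measured 64.7 and 66.8 CPM with PM2.5, against 51.7 and 44.5 CPM untreated. Exposed libraries lay above untreated ones in each line. The log2 rise in EpH4 was 0.45 ± 0.07 (adjusted p = 0.000568, edgeR). In EpH4-AS the value was 0.22 ± 0.08 and did not pass (adjusted p = 0.110), although it did in fits without EpH4 untreated replicate 1 (adjusted p = 0.0422) or replicate 2 (adjusted p = 0.0462, edgeR), libraries of the other line. Bak1 was lower in EpH4-AS, at -0.63 ± 0.08 with PM2.5 (adjusted p = 1.96e-06) and -0.40 ± 0.08 untreated (adjusted p = 0.000271, edgeR), and the untreated difference did not pass on RPKM values (-0.19, adjusted p = 0.0679, limma). Its whole locus lies within Gm50253 and Ggnbp1 on the opposite strand, which had at most 139 and 71 counts in a library.

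The initiator caspase gene Casp8 (ENSMUSG00000026029, chromosome 1, 58834533 to 58886662, plus strand) measured 15.6 and 15.0 CPM in EpH4-AS with PM2.5, against 12.8 and 12.6 CPM in EpH4-AS untreated. In EpH4 the levels were 24.3 and 23.2 CPM with PM2.5, against 17.5 and 16.6 CPM untreated. It had the largest PM2.5 effect of the 8 genes in EpH4 by point value, at 0.48 ± 0.08 log2 units (adjusted p = 0.000614, edgeR). Bak1, at 0.45 ± 0.07, was so close that the order of these genes is not resolved. In EpH4-AS the exposed libraries were again both higher, and the value of 0.26 ± 0.10 did not pass (adjusted p = 0.0967, edgeR). Casp8 was lower in EpH4-AS, at -0.63 ± 0.08 with PM2.5 (adjusted p = 5.14e-06) and -0.42 ± 0.09 untreated (adjusted p = 0.000538, edgeR), and both exposed EpH4-AS libraries lay below both untreated EpH4 libraries, at means of 15.3 ± 0.464 CPM and 17.0 ± 0.638 CPM (SD, n = 2 each), a difference that was not tested.

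The interaction, the PM2.5 effect in EpH4-AS minus that in EpH4, asks whether the lines responded differently. It was called for 0 of the 8 genes by edgeR, by DESeq2 and by limma on RPKM values, where 14.1% of all tested genes passed in edgeR (7.6% higher, 6.49% lower). At an unadjusted p below 0.05, 1 of the 8 passed, against 28.2% of all tested genes. That gene was Mcl1, whose log2 values had opposite signs in the lines, with an interaction of 0.24 ± 0.08 log2 units (edgeR adjusted p = 0.0533, and 0.0139 to 0.195 over the alternatives). It passed without a filter on low counts (adjusted p = 0.0139), without mitochondrially encoded genes (adjusted p = 0.0345), without EpH4 untreated replicate 1 (adjusted p = 0.0196), without EpH4 PM2.5 replicate 1 (adjusted p = 0.0313) and with a crossed replicate block, an alternative chosen after seeing the data (adjusted p = 0.0438, all edgeR). Bak1 and Casp8 had smaller PM2.5 effects in EpH4-AS, with interactions of -0.23 ± 0.11 and -0.21 ± 0.13 that did not pass (adjusted p = 0.204 and 0.295, edgeR), although Bak1 did without EpH4 untreated replicate 1 (-0.34, adjusted p = 0.0291). Casp8, Bak1 and Bcl2l1, which rose in EpH4 and did not pass in EpH4-AS, were not shown to respond differently in the 2 lines. For Bid the interaction was 0.00 ± 0.11 (adjusted p = 0.9999, edgeR).

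The 4 calls in EpH4 held in all 19 alternatives run. In EpH4-AS the number called varied more: a fit to the 4 EpH4-AS libraries alone called 5 of the 8 genes, Bid and Mcl1, Bcl2l1 and Bak1 as higher and Bcl2 as lower, while DESeq2 and limma called none. At an unadjusted p below 0.05, 6 of the 8 passed in EpH4-AS, against 25.2% of all tested genes. The direction of calls over all genes also moved with scaling there: 57.4% of called genes were higher with PM2.5 in EpH4-AS, but 43.8% with library totals in place of TMM, and 44.6% on log2(RPKM + 1) in limma. For the interaction the share was 53.9% with TMM and 43.2% with library totals. None of the 8 genes changed sign within a line under these scalings; the interaction of Bid did, near 0.

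The 7 BCL2 genes can also be read as a balance within a library, which needs no scaling between libraries. The summed RPKM of Bcl2, Bcl2l1 and Mcl1 was divided by that of Bcl2l11, Bid, Bad and Bak1. Other family members, among them Bax, are left out of both sums. Bax alone averaged 39.6 RPKM in EpH4-AS with PM2.5 and 39.1 RPKM untreated. In EpH4 it averaged 58.3 RPKM with PM2.5 and 53.5 RPKM untreated. The ratio is thus one of these 7 genes and not of the whole family. This ratio was 3.68 and 3.46 in EpH4-AS with PM2.5, 3.80 and 3.40 in EpH4-AS untreated, 2.47 and 2.24 in EpH4 with PM2.5 and 2.74 and 3.13 in EpH4 untreated. All 4 EpH4-AS libraries lay above all 4 EpH4 libraries, and in EpH4 both exposed libraries lay below both untreated ones. The numerator was nearly all Mcl1, which made up 84.0% to 90.1% of it, and Bak1 made up 35.0% to 49.3% of the denominator. Without Mcl1 the ratio averaged 0.360 in EpH4-AS with PM2.5, 0.365 in EpH4-AS untreated, 0.354 in EpH4 with PM2.5 and 0.355 in EpH4 untreated, and the lines overlapped. The separation of the lines in this ratio was not seen without Mcl1. The numerator was not the larger one in EpH4-AS, however. It averaged 120.5 RPKM with PM2.5 and 111.8 RPKM untreated there, against 128.8 and 132.9 RPKM in EpH4. The denominator averaged 33.8 and 31.1 RPKM in EpH4-AS, against 54.8 and 45.4 RPKM in EpH4. Unlike the ratio, these sums depend on the scaling between libraries. No test was run on these ratios or sums. These are ratios of transcripts and say nothing of protein.

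**Figure D3:**
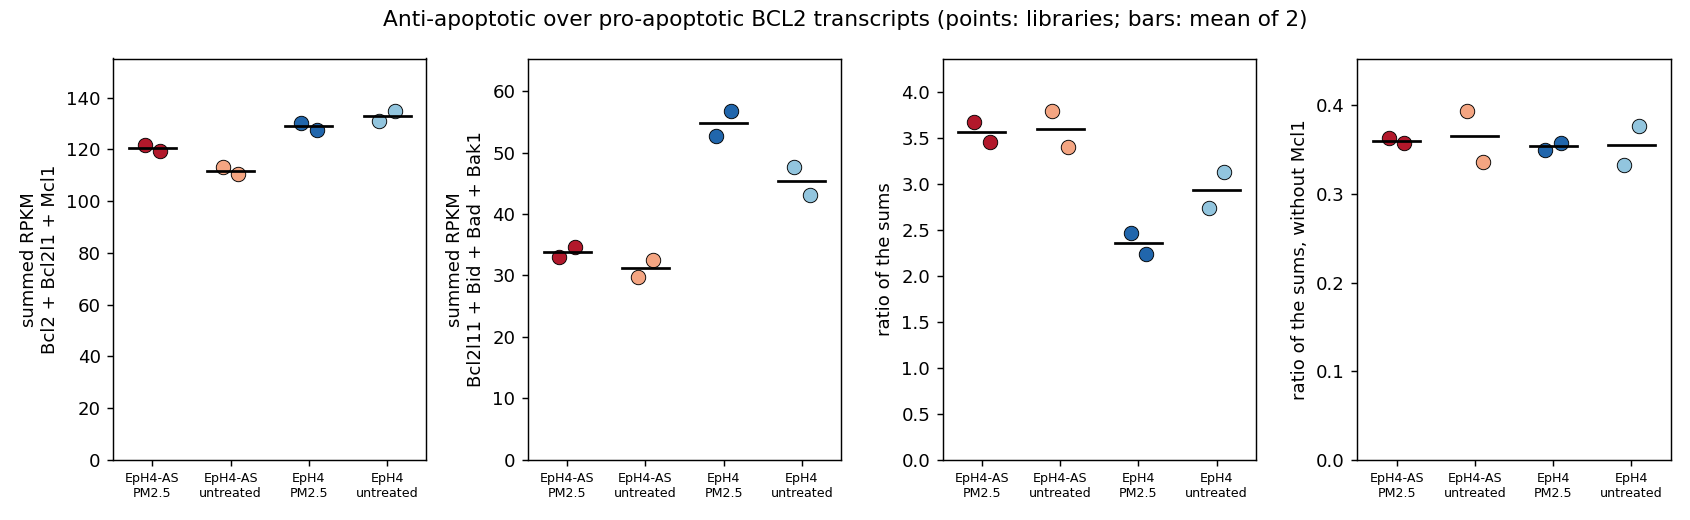
Summed RPKM of the 3 anti-apoptotic genes, of the 4 pro-apoptotic BCL2 genes, their ratio, and the ratio without Mcl1 (vertical axes, starting at 0); points are libraries and bars the mean of 2. The ratio separates the lines in the third panel, at 3.40 to 3.80 in EpH4-AS and 2.24 to 3.13 in EpH4, and no longer does in the fourth.

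The tables per library also hold reads over the whole gene, so the share outside exons can be taken; such reads can come from unspliced RNA, genomic DNA or unannotated exons. Over the whole library this share was 3.51% ± 0.118 in EpH4-AS with PM2.5, 3.47% ± 0.107 in EpH4-AS untreated, 11.96% ± 0.741 in EpH4 with PM2.5 and 11.8% ± 0.706 in EpH4 untreated (SD, n = 2 each). For each of the 8 genes the share was lower in EpH4-AS, for example in Bcl2l1, at 2.64% ± 0.395 in EpH4-AS with PM2.5 and 17.1% ± 2.43 in EpH4 with PM2.5. As a ratio, the gap between the lines was narrower than over the whole library in Bid, Casp8 and Mcl1. Bid held 13.1% ± 1.17 in EpH4-AS untreated and 20.0% ± 1.94 in EpH4 untreated. Casp8 held 4.69% ± 2.03 in EpH4-AS and 13.7% ± 0.136 in EpH4 with PM2.5, and 6.41% ± 3.63 and 16.5% ± 2.49 untreated. Bcl2 had a narrower gap untreated only, at 4.55% ± 0.236 in EpH4-AS and 13.5% ± 0.937 in EpH4. The gap was narrowest in Mcl1, with 6.14% ± 0.194 in EpH4-AS with PM2.5 and 7.52% ± 0.130 in EpH4 with PM2.5, and 6.34% ± 0.0369 and 6.97% ± 0.0346 untreated. Bid had the highest share of the 8 in every group, from 8.87% ± 1.20 in EpH4-AS with PM2.5 to 21.0% ± 1.68 in EpH4 with PM2.5. Bak1 had the lowest in every group, from 0.540% ± 0.243 in EpH4-AS with PM2.5, on 3 to 5 reads, to 3.65% ± 0.540 in EpH4 untreated. The line differences above stand beside this difference between the libraries, and its part in them was not tested. Within a line the whole-library share with PM2.5 and untreated differed by less than its SD, while Bid and Bcl2 had lower shares in EpH4-AS with PM2.5 than untreated, 8.87% ± 1.20 against 13.1% ± 1.17 for Bid and 1.77% ± 0.782 against 4.55% ± 0.236 for Bcl2, on 3 to 45 reads outside exons.

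**Figure D4:**
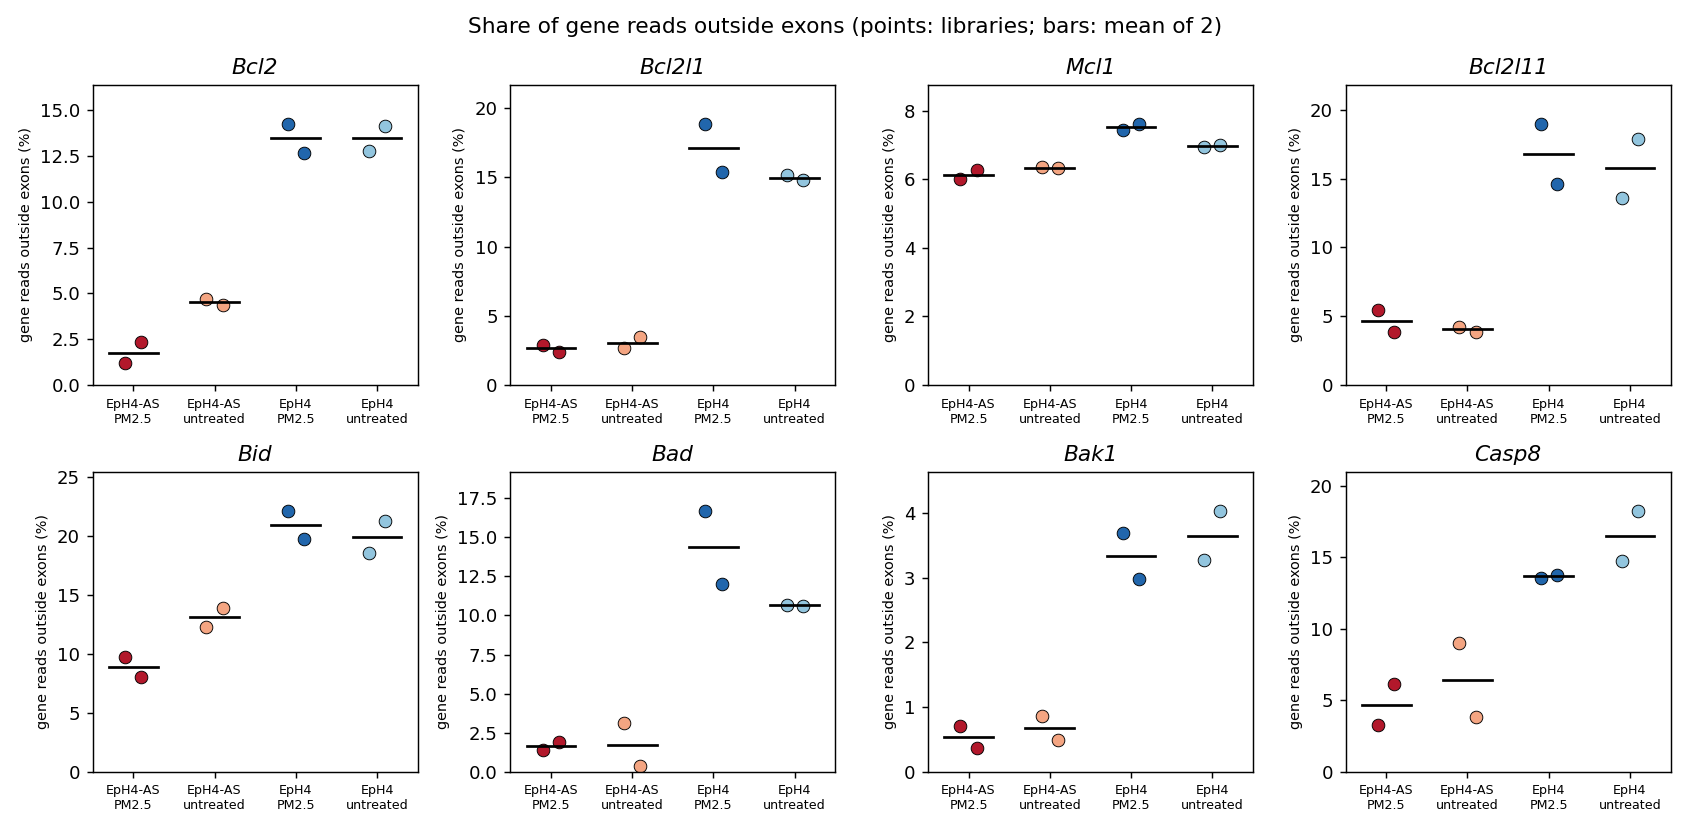
Share of each gene's reads that lies outside its exons, in percent (vertical axes, starting at 0), in the 8 libraries; points are libraries and bars the mean of 2. The EpH4-AS libraries lie below the EpH4 libraries for all 8 genes; the gap is narrowest for Mcl1, where the group means are 6.14% and 6.34% in EpH4-AS and 7.52% and 6.97% in EpH4, with PM2.5 and untreated.

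Genes with the most similar pattern over the 8 libraries were sought among 10204 genes at a mean of 5 CPM or more, by the root mean square difference of log2 CPM centred on each gene's mean. Mcl1 was nearest to Ddb1, with a difference of 0.013 log2 units, then to Sra1 (0.029). Close matches were also found for Bcl2l11 with Reep5 (0.031) and Acvr1 (0.032), for Bad with Ubap2 (0.031) and Itga3 (0.033), and for Bcl2 with Gna12 (0.037) and Ski (0.050). The differences were larger for Bcl2l1 with Nhsl3 (0.053) and Tubb5 (0.067), Bak1 with Plpp3 (0.056) and Mocs1 (0.059), Casp8 with Esyt1 (0.070) and Sh3pxd2a (0.085), and Bid with Lrp8 (0.073) and St3gal2 (0.075). Among the 8 genes themselves the closest pair was Bak1 and Casp8, with a difference of 0.077 log2 units. The named genes depend on the measure: by Pearson distance over the same libraries, Bcl2 had the same 2 nearest genes, Mcl1 shared Ddb1, and the other 6 genes shared none. These are descriptions over 8 libraries that share lines and treatments.

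The wider pathway was read from 39 further apoptosis genes in 8 lists by role, of which 30 passed the filter. With PM2.5, 12 of the 30 rose in EpH4 and the other 18 did not pass, where 14.3% of all tested genes rose; in EpH4-AS 3 of the 30 rose, where 6.39% of all tested genes did. The median log2 fold change of the 30 was 0.01 in EpH4-AS and 0.22 in EpH4. The executioner caspase gene Casp6 rose by 0.30 ± 0.10 in EpH4 (adjusted p = 0.0380) and measured -0.01 ± 0.12 in EpH4-AS (adjusted p = 0.991, edgeR). The call in EpH4 was lost in 10 of 19 alternatives, 6 of them fits without 1 library, and the interaction did not pass (adjusted p = 0.225, edgeR).

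Upstream of it, Apaf1, the scaffold of the apoptosome, rose by 0.37 ± 0.07 in EpH4 (adjusted p = 0.00187, edgeR), and was 1 of 4 genes of its list; the other 3 did not pass. Of 8 death receptor genes tested, 4 rose in EpH4, where 14.3% of all tested genes rose. They were Fadd, the adaptor that recruits caspase-8, by 0.62 ± 0.11 (adjusted p = 0.000932), Fas by 0.43 ± 0.08 (adjusted p = 0.00177), the TRAIL receptor gene Tnfrsf10b by 0.42 ± 0.06 (adjusted p = 0.000119) and the TNF receptor gene Tnfrsf1a by 0.31 ± 0.06 (adjusted p = 0.00131, edgeR). In EpH4-AS 2 of the 8 rose, where 6.39% of all tested genes did. Fas measured 10.4 and 10.9 CPM in EpH4-AS with PM2.5, against 5.60 and 5.19 CPM untreated, a rise of 0.98 ± 0.13 (adjusted p = 0.000237, edgeR) that held in all 19 alternatives. Cflar, which encodes the caspase-8 inhibitor c-FLIP, measured 37.9 and 42.1 CPM in EpH4-AS with PM2.5, against 30.5 and 29.7 CPM untreated, a rise of 0.41 ± 0.08 (adjusted p = 0.00373, edgeR). It was not called without EpH4-AS untreated replicate 2 (adjusted p = 0.0571) or without EpH4-AS PM2.5 replicate 2 (adjusted p = 0.0554, edgeR).

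In the BCL2 lists beyond the 8 genes, Bmf, a BH3-only gene, averaged 29.3 ± 7.47 CPM in EpH4 with PM2.5 and 13.7 ± 4.99 CPM untreated (SD, n = 2 each), a log2 rise of 1.08 ± 0.19 (adjusted p = 0.000831, edgeR). Bcl2l2, which encodes the anti-apoptotic Bcl-w, rose by 0.27 ± 0.06 (adjusted p = 0.00561, edgeR). Bax, the other main pore former, did not pass in either line, at 0.05 ± 0.07 in EpH4-AS and 0.12 ± 0.06 in EpH4 (adjusted p = 0.715 and 0.161), nor did Bbc3, which encodes the p53 target Puma, at -0.08 ± 0.09 and -0.19 ± 0.08 (adjusted p = 0.617 and 0.109, edgeR). Bbc3 did pass as lower in EpH4 without a filter on low counts (-0.20, adjusted p = 0.0354) and without EpH4 untreated replicate 1 (-0.33, adjusted p = 0.00162, edgeR). Of 8 inhibitor of apoptosis genes and their antagonists, 4 rose in EpH4, where 14.3% of all tested genes rose. They were Birc5 by 1.24 ± 0.14 (adjusted p = 2.65e-05), Htra2 by 0.35 ± 0.08 (adjusted p = 0.00345), Septin4 by 1.88 ± 0.56 (adjusted p = 0.0228) and Xiap by 0.17 ± 0.06 (adjusted p = 0.0404, edgeR). Birc5 encodes survivin, which also acts in cell division, and averaged 23.0 ± 1.96 CPM in EpH4 with PM2.5 and 9.70 ± 2.69 CPM untreated (SD, n = 2 each). Most Septin4 reads in EpH4 lay outside its exons, on average 90.4% with PM2.5 and 96.3% untreated. Over the whole library these shares were 11.96% and 11.8%. Septin4 rests on 15 and 7 reads with PM2.5 and 3 and 3 untreated and lost its call in 4 of 18 alternatives, and Xiap lost its call in 15 of 19 alternatives, among them all 8 fits without 1 library. In EpH4-AS Birc3 rose by 0.58 ± 0.16 (adjusted p = 0.0351, edgeR), which was lost in 6 of 18 alternatives: the 4 fits that left out an EpH4-AS library, the replicate block (adjusted p = 0.0639, edgeR) and log2(RPKM + 0.1) values (adjusted p = 0.0831, limma). None of the 4 genes in the list of substrates and nucleases of DNA fragmentation passed in either line.

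**Figure D5:**
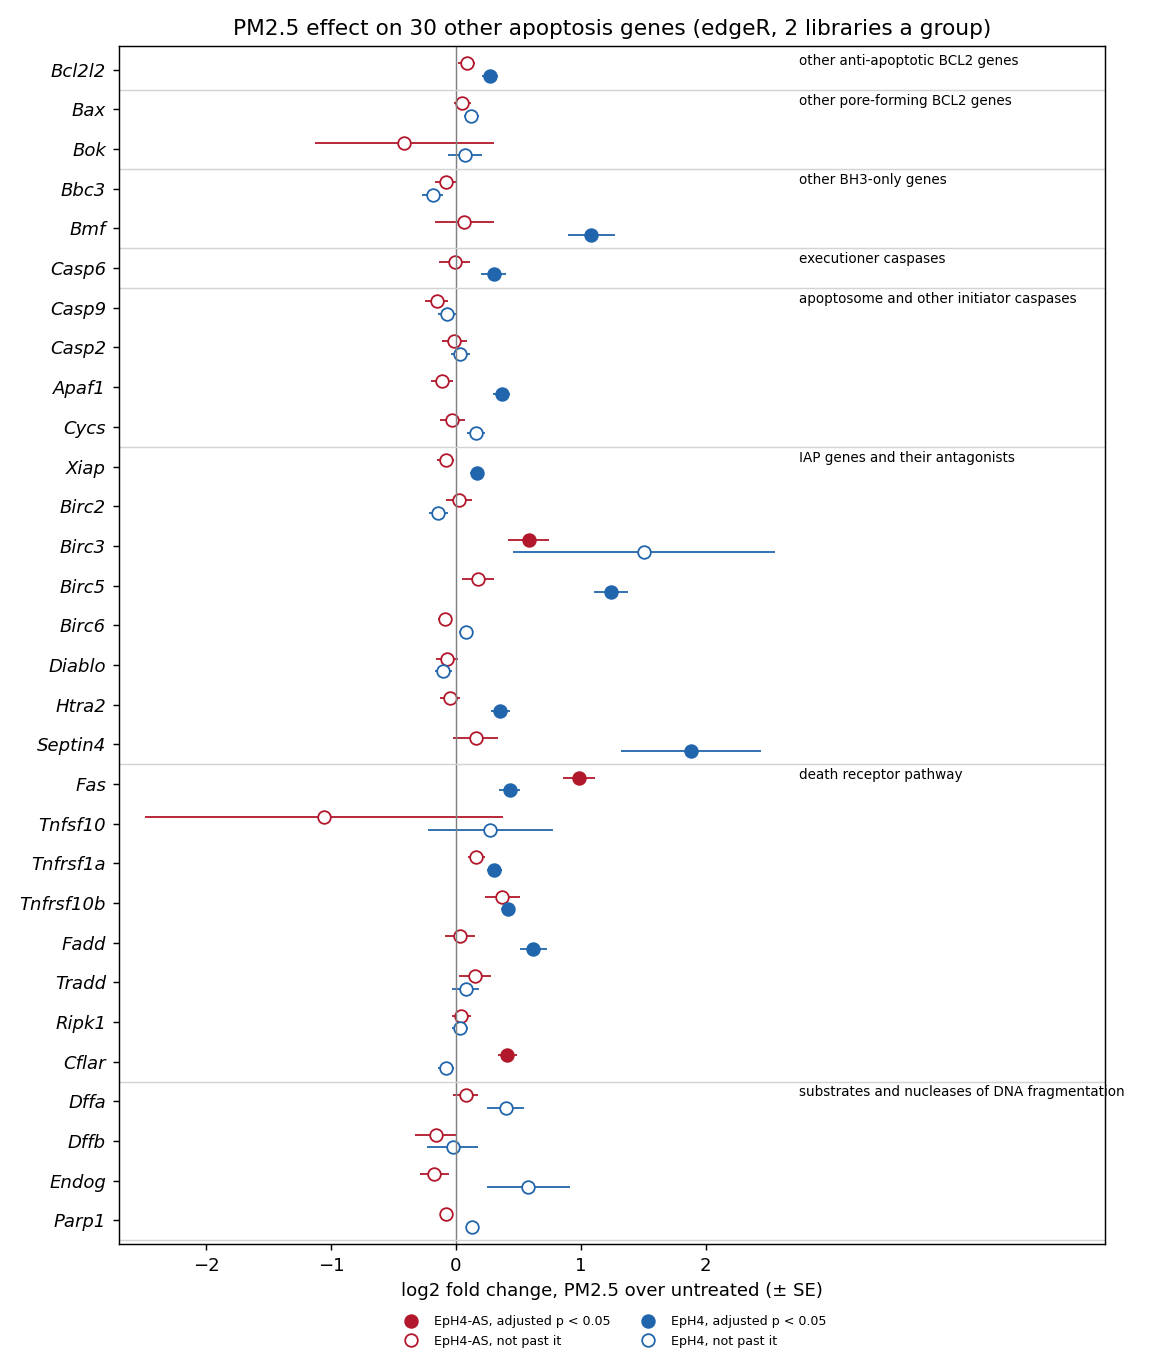
PM2.5 log2 fold change ± SE (horizontal axis) of the 30 further apoptosis genes that passed the filter, grouped by list, with EpH4-AS in red above EpH4 in blue for each gene; filled points pass an adjusted p of 0.05. All 12 filled EpH4 points and all 3 filled EpH4-AS points lie to the right of 0.

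Between the lines, 27 of the 30 further genes passed with PM2.5 (9 higher in EpH4-AS, 18 lower) and 27 untreated (10 higher, 17 lower), near the background of 89.0% and 89.2%. Their medians, -0.73 with PM2.5 and -0.43 untreated, lay close to those of the 8 genes. The lists differed in direction. Of all tested genes 43.5% passed as higher in EpH4-AS and 45.5% as lower with PM2.5, and 43.6% and 45.7% untreated. Of the 8 inhibitor of apoptosis genes and antagonists, 5 were higher and 3 lower in both comparisons. Of the 8 death receptor genes tested, 6 were lower in both comparisons, with 0 higher with PM2.5 and 1 higher untreated. All 4 genes of the apoptosome list were lower in EpH4-AS in both comparisons. All 4 genes in the list of substrates and nucleases of DNA fragmentation were higher. Among these, Parp1 was higher by 1.73 ± 0.05 untreated (adjusted p = 1.04e-13) and Dffa by 2.81 ± 0.12 untreated (adjusted p = 1.12e-11, edgeR). Casp6 was lower in EpH4-AS, at -0.62 ± 0.11 with PM2.5 (adjusted p = 8.67e-05) and -0.31 ± 0.11 untreated (adjusted p = 0.0187, edgeR), the untreated difference being lost with DESeq2, in limma, and without replicate 1 of EpH4-AS untreated or of EpH4 untreated. Bax, like Bak1, was lower in EpH4-AS, at -0.72 ± 0.06 with PM2.5 and -0.65 ± 0.06 untreated (adjusted p = 5.18e-08 and 2.03e-07, edgeR). Tnfrsf10b was the furthest apart of the death receptors, at 4.79 and 5.10 CPM in EpH4-AS with PM2.5 and 96.7 and 98.7 CPM in EpH4 with PM2.5. The remaining 9 of the 39 genes, among them Pmaip1, Bik, Fasl and Tnf, had at most 7 counts in any library and were not tested.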

How the data were processed

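Polyadenylated RNA of 8 spheroid libraries was sequenced with a stranded ligation kit, per the labels' protocols. The deposited counts are whole reads per gene made by the authors on GRCm39, per the submitters' processing notes; the sources used here do not name the aligner, counter, counting strand or annotation. The authors' deposited RPKM values divide those reads by exon length and library size, and deposited tables per library also give reads over the whole gene. Library labels were matched to columns by name.

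Counts of 13716 of 25413 genes passed edgeR's filterByExpr and were tested with edgeR 4.0.16 in R 4.3.3 (TMM, quasi-likelihood, 4 groups in 1 fit, residual df 4, common dispersion 0.00218), at an adjusted p of 0.05. The SE given with an edgeR log2 fold change is its absolute value divided by the square root of the quasi-likelihood F statistic. Steps were tested on simulated data. Alternatives were DESeq2 1.42.0, limma 3.58.1 on log2(RPKM + 1) and log2(RPKM + 0.1), other scalings and filters, only the groups compared, replicate blocks, and leaving out each library. The 8 genes and all lists were chosen with earlier results of these data known. All 8 are named; of each of the 8 further lists, up to 4 genes with the smallest adjusted p past the threshold in a comparison may be named, and Casp6, Bax and Bbc3 always. Some genes are not reported here and are left out of the list counts. Promoters come from the RefSeq table of another build, GRCm38.p6, and carry no coordinates of the counts' build.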

Additional observations from a re-analysis of the deposited data

Results flagged for a closer look

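For 7 of the 30 further apoptosis genes the PM2.5 effect differed between the lines by the interaction test (EpH4-AS minus EpH4, edgeR, Benjamini-Hochberg adjustment over all tested genes), and for none of the 8 BCL2 family and caspase-8 genes. In EpH4-AS the effect was the higher one for 2 of these 7 and the lower one for 5. Over all tested genes 14.1% passed this test, 7.6% as higher and 6.49% as lower. The interaction of Cflar, the caspase-8 inhibitor gene, was 0.49 ± 0.10 log2 units (adjusted p = 0.00488), with 40.0 ± 2.93 CPM in EpH4-AS with PM2.5 and 30.1 ± 0.524 CPM in EpH4-AS untreated, against 69.7 ± 4.71 CPM in EpH4 with PM2.5 and 73.6 ± 0.673 CPM in EpH4 untreated (SD, n = 2 each). That of Fas was 0.55 ± 0.15 (adjusted p = 0.0263). Lower in EpH4-AS were Birc5 at -1.06 ± 0.19 (adjusted p = 0.00196), Bmf at -1.02 ± 0.30 (adjusted p = 0.0391), Fadd at -0.59 ± 0.16 (adjusted p = 0.0282), Apaf1 at -0.47 ± 0.11 (adjusted p = 0.0121) and Htra2 at -0.40 ± 0.11 (adjusted p = 0.0252, all edgeR). Cflar and Birc5 kept their calls in all 18 alternatives. Apaf1 lost its call in 3 of them, Htra2 in 6, Fas and Fadd in 7 each and Bmf in 10. Among fits without 1 library, Fas, Fadd and Bmf passed only without EpH4 untreated replicate 1 or EpH4 PM2.5 replicate 1, and Htra2 also without EpH4 untreated replicate 2. Apaf1 did not pass without EpH4-AS untreated replicate 1 (adjusted p = 0.117) or EpH4-AS PM2.5 replicate 2 (adjusted p = 0.0877, edgeR).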

How the results depend on the processing

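Of the 8 genes, 4 passed for PM2.5 in EpH4 in all 19 alternatives. In EpH4-AS, where 1 passed, 5 did with only the groups compared, 0 with DESeq2 and 0 with limma on either RPKM scale, and 0 to 2 without 1 library. Over all genes, 2995 passed in EpH4-AS with only the groups compared (1529 in the reported fit) and 363 to 2088 without 1 library, at most 695 of them in the 4 fits that left out an EpH4-AS library. In EpH4, 2330 passed with DESeq2 (3726 in the reported fit) and 2145 to 3987 without 1 library, the lowest without EpH4 PM2.5 replicate 2 (2145) and EpH4 untreated replicate 2 (2451). For the interaction, 1 of the 8 genes passed without a filter, 1 without mitochondrially encoded genes, 1 with a crossed replicate block (chosen after seeing the data) and 0 to 2 without 1 library, and 875 to 2621 of all genes (1932 in the reported fit) without 1 library, at most 1246 of them in the 4 fits that left out an EpH4-AS library. Of the further apoptosis genes, 1 to 3 passed in EpH4-AS without 1 library, 1 without replicate 2 of either EpH4-AS group; their interaction passed for 3 with DESeq2 and for 2 to 8 without 1 library. The cause was not tested.

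These values turned sign, and none passed with the turned sign. Without mitochondrially encoded genes the PM2.5 effect in EpH4-AS was 0.0085 for Bad and 0.0051 for Casp6. Untreated line differences in limma, on log2(RPKM + 1) and log2(RPKM + 0.1), were 0.013 and 0.014 for Bcl2l2 (-0.18, adjusted p = 0.0204, edgeR, in the reported fit) and 0.13 and 0.14 for Bbc3. The interaction of Bid was -0.0078 with DESeq2 size factors, -0.033 with library totals, -0.0020 with a stricter filter, -0.0091 with DESeq2, and -0.057 and -0.035 in limma. Without 1 library, PM2.5 effects ranged in EpH4-AS from -0.0082 to 0.012 for Bad, -0.021 to 0.14 for Bax and -0.11 to 0.14 for Casp6, and in EpH4 from -0.012 to 0.14 for Bad. The untreated line difference of Bbc3 ranged from -0.21 (adjusted p = 0.0118, edgeR, without EpH4 untreated replicate 1) to 0.10. Interactions ranged from -0.064 to 0.016 for Bcl2l11, -0.084 to 0.13 for Bid, -0.15 to 0.0074 for Bad, -0.14 to 0.029 for Bax and -0.055 to 0.25 for Bbc3.

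Same-numbered libraries did not deviate together (correlations of -0.10 to 0.06). Such correlations cannot show whether these libraries were prepared together, so a pairing by number is unknown. A replicate block left the calls among the 8 genes at 1 in EpH4-AS, 4 in EpH4, 8 in each line comparison and 0 for the interaction. Without a filter the median line difference of all genes shifted by -0.10. For the PM2.5 effect in EpH4-AS, counting alone gives an SE of 0.094 of the fitted 0.096 log2 units for Casp8, and 0.018 of 0.054 for Mcl1. The share did not follow read number alone. It was 0.058 of 0.065 for Bcl2l11, on 1229 and 1208 reads, and 0.090 of 0.107 for Bcl2, on 495 and 545 reads.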
